A study of Mus musculus with 237 samples.

Results

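The data compare 71 interstitium cells with 74 cap mesenchyme cells of the mouse embryonic kidney at E18.5, the embryonic day, 145 of the 237 single cells of the series. Membership was taken from the labels alone. Interstitium cells are those whose source name calls them interstitial and wild type, and their titles also carry the name FoxD1_GCE, which no label explains. Cap cells are those whose source name gives cap mesenchyme and its derivatives, wild type, and their titles carry the name CTRL_2. Both groups have the strain given as mixed and no treatment, and no label names a transgene, a reporter, a sort gate or an embryo. Per the labels, kidneys were digested with proteases, cells were enriched by FACS, and single cells were captured in a Fluidigm C1 microfluidic device before library making. Each column of the deposited table is 1 cell. The design text of the series names wild-type cap cells, wild-type stromal cells and Pax2 mutant cap cells. The question addressed here is which transcripts part the stroma from the cap when Pax2 is intact.

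The cap mesenchyme is a layer of progenitor cells around the tips of the ureteric bud, and it gives rise to the epithelium of the nephron. The interstitium is the stroma between and around these structures, and its progenitors, marked by the transcription factor Foxd1, give rise to fibroblasts, mural cells of vessels and mesangial cells. The cap keeps itself through the transcription factors Six2, Eya1 and Sall1 and signals to the ureteric bud through Gdnf, while the stroma supplies matrix, Wnt modulators and retinoid signals to its neighbours.

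Values are in RPKM, reads scaled for the length of the transcript and the depth of the library, which allows levels of different genes to be set side by side. Detection of a gene means a value of at least 1 RPKM. A level is the mean of log2(RPKM + 1) over the cells of a group, its error is the SD between cells, and a difference is the interstitium level minus the cap level in log2 units. On this scale the change of a gene at low RPKM is understated. Because no label names an embryo, each group counts as 1 sample, and cells are not replicates of a condition. No test between the groups was therefore made, and no p-value is given. Shares of cells are given with 95% intervals (exact, Clopper-Pearson) that speak to counting error alone.

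Interstitium and cap differ in more than their lineage. The interstitium titles carry 1 date and the cap titles another, so lineage and day cannot be told apart. All cap cells are in pool 2 of the titles, with 22 of the interstitium cells, and the other 49 interstitium cells are in pool 3. The transcripts of Y-linked genes, and no Xist, were detected in 70 of 71 interstitium cells, and Xist with no Y-linked gene in 67 of 74 cap cells, so lineage and sex cannot be told apart either. Read depth is unknown. The number of detected genes per cell had a median of 5178 in interstitium cells (3085 to 7196) and 5210.5 in cap cells (1656 to 7215). LOC100503946, a pseudogene of a mitochondrial ATP synthase subunit, stood at 20000 RPKM or more in 9 interstitium and 20 cap cells. Those 20 cap cells had a median of 4003 detected genes, against 5544.5 in the other 54 cap cells. The transcripts of Actb, Gapdh and Eef1a1 were above 0 in every cell of both groups.

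The markers of the 2 lineages followed the labels in most cells and went against them in some. Meis1, Pdgfra and Col1a1 stood for the interstitium, and Six2, Crym and Eya1 for the cap. All 3 interstitium markers and no cap marker were detected in 43 of 71 interstitium cells. All 3 cap markers were detected in 51 of 74 cap cells, 27 of them without an interstitium marker and 20 with 1. More cap than interstitium markers were detected in 6 interstitium cells, and more interstitium than cap markers in 9 cap cells, 4 of which had all 3 interstitium markers and no cap marker. In 14 interstitium cells 2 or 3 markers of each lineage were detected, and their median number of detected genes was 6100, against 4851 in the 43 interstitium cells with the stromal set alone. For the 9 cap cells the median was 3860, and 5 of them were high for the pseudogene. The part of these cells in the differences below was measured by leaving the 6 and the 9 out, where stated.

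**Figure D1:**
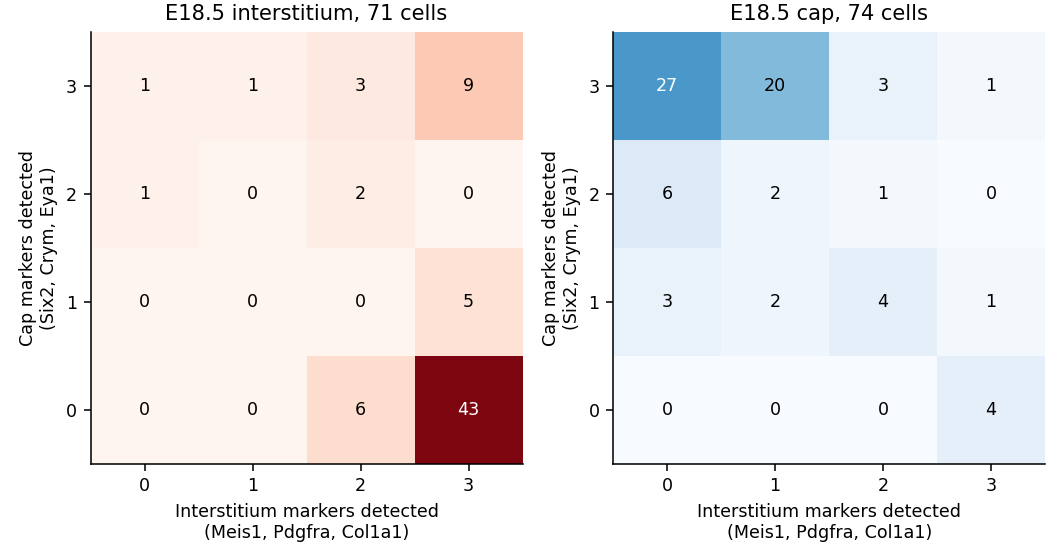
Number of cells by how many of the 3 interstitium markers (horizontal axis) and of the 3 cap markers (vertical axis) were detected at 1 RPKM or more, in E18.5 interstitium (left, 71 cells) and E18.5 cap (right, 74 cells). The fullest squares hold 43 interstitium cells with 3 stromal and 0 cap markers, and 27 and 20 cap cells with 3 cap markers and 0 or 1 stromal marker.

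The promoters of a stromal pair, Meis1 and Pdgfra, and of a neighbouring pair of cap genes, Six2 and Six3, are shown because the genes of each pair moved together between the groups. Each window runs from 250 bases before to 50 bases after a RefSeq start in GRCm38.p6, and is written 5′ to 3′ on the strand of the gene. Capitals mark matches, on either strand, to the CCAAT box (CCAAT), the GC box (GGGCGG), the TATA box (TATAAA) and the core bound by Meis proteins (TGACAG). No match overlapped another in these 4 windows. The windows lie at chr11:19018920-19019219 (minus strand) for Meis1, chr5:75152001-75152300 (plus strand) for Pdgfra, chr17:85688205-85688504 (minus strand) for Six2 and chr17:85620584-85620883 (plus strand) for Six3.
Meis1: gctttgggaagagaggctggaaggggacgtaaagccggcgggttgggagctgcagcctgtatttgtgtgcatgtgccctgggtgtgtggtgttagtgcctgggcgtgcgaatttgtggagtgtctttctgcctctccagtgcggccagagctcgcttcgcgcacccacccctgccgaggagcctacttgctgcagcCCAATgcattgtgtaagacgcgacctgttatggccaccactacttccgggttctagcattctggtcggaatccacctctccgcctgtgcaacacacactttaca
Pdgfra: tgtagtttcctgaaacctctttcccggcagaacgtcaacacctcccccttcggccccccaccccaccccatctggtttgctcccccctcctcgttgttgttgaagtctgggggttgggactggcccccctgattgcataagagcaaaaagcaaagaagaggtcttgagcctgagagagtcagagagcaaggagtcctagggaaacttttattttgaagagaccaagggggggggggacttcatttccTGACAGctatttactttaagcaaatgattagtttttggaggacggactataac
Six2: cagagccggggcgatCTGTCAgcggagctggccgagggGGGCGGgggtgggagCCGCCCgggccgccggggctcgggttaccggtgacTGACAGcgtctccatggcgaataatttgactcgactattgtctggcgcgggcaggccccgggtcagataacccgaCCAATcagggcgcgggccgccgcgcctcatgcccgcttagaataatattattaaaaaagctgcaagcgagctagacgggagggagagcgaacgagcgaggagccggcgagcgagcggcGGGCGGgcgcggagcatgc
Six3: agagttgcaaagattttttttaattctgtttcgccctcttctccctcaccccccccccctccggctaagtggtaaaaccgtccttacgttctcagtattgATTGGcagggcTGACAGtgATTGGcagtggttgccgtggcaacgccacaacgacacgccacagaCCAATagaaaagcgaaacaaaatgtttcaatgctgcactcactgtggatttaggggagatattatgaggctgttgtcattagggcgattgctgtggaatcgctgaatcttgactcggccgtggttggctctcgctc

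Six2 held 3 matches to the GC box, 1 to the CCAAT box and 2 to the Meis core, the nearest of which lies 162 bases before the start. Six3 held 3 matches to the CCAAT box and 1 to the Meis core. Meis1 had 1 CCAAT box, and Pdgfra 1 Meis core. Of all 32851 promoter windows of the RefSeq table, 37.41% held the CCAAT box, 35.66% the GC box, 19.18% the Meis core and 13.62% the TATA box. Of the 40 genes with the largest differences named below, windows were found for 13 that were higher and 11 that were lower in interstitium. The GC box stood in 13 of the 16 windows of the higher genes and in 7 of the 15 windows of the lower genes, the CCAAT box in 3 and 7, the Meis core in 4 and 4, and the TATA box in 3 and 1. These matches describe letters and are not binding sites.

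Meis1 (gene ID 17268, chr11:18880428-19018969), a homeobox factor of the stroma, ranged over 0.163, 178 and 1096 RPKM (lowest, median and highest) in interstitium cells, against 0, 0.782 and 560.2 RPKM in cap cells. Interstitium cells were high in nearly all cases, and the groups overlapped, since some cap cells reached interstitium levels. The level was 7.08 ± 1.98 in interstitium and 2.15 ± 2.57 in cap cells, which differ by 4.93. Detection was seen in 69 of 71 interstitium cells (97.2%, 90.2 to 99.7) and 36 of 74 cap cells (48.6%, 36.9 to 60.6).
Pdgfra (gene ID 18595, chr5:75152291-75198204), the receptor for PDGF-A that marks stromal fibroblasts, had 0, 16.3 and 192 RPKM in interstitium cells, against 0, 0 and 97.4 RPKM in cap cells. Its level was 3.88 ± 2.25 in interstitium and 0.47 ± 1.38 in cap cells, and it was detected in 58 of 71 interstitium cells (81.7%, 70.7 to 89.9) and 8 of 74 cap cells (10.8%, 4.78 to 20.2). Most cap cells were at 0, and the few with transcript lay within the interstitium range.
Col1a1 (gene ID 12842, chr11:94936270-94951856), a chain of type I collagen, had 0, 82.3 and 5539 RPKM in interstitium cells, against 0, 0 and 413 RPKM in cap cells. The level was 5.93 ± 2.36 in interstitium and 0.88 ± 2.005 in cap cells, with detection in 67 of 71 interstitium cells (94.4%, 86.2 to 98.4) and 14 of 74 cap cells (18.9%, 10.7 to 29.7). The highest interstitium cell stood far above every cap cell, and 4 interstitium cells were below 1 RPKM.

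Six2 (gene ID 20472, chr17:85684268-85688254), which holds nephron progenitors back from differentiation, ranged over 0, 0.149 and 172 RPKM in interstitium cells, against 0, 65.2 and 596 RPKM in cap cells. Its level was 1.33 ± 2.19 in interstitium and 5.01 ± 2.64 in cap cells, which differ by -3.68, with detection in 19 of 71 interstitium cells (26.8%, 16.9 to 38.6) and 62 of 74 cap cells (83.8%, 73.4 to 91.3). The highest interstitium cells lay above the cap median, so the groups overlapped.
Crym (gene ID 12971, chr7:120186384-120201988), which encodes a thyroid hormone-binding protein, had 0, 0 and 279 RPKM in interstitium cells, against 0, 144 and 922 RPKM in cap cells. It was detected in 18 of 71 interstitium cells (25.4%, 15.8 to 37.1) and 59 of 74 cap cells (79.7%, 68.8 to 88.2), and its level was 1.49 ± 2.52 in interstitium and 5.65 ± 3.13 in cap cells, so that both groups held cells at 0 and cells above 100 RPKM.
Eya1 (gene ID 14048, chr1:14168958-14310199), a partner of Six2, had 0, 0 and 225 RPKM in interstitium cells, against 0, 36.5 and 331 RPKM in cap cells and was detected in 16 of 71 interstitium cells (22.5%, 13.46 to 33.9999) and 60 of 74 cap cells (81.1%, 70.3 to 89.3). Among detecting cells alone its level differed by -0.12, against -1.39 for Six2 and -1.42 for Crym. For Eya1 the groups thus differed in the share of cells with transcript far more than in the level within those cells.
With only the 22 interstitium cells of pool 2, the differences of Meis1, Pdgfra, Col1a1, Six2, Crym and Eya1 were 4.91, 3.73, 5.01, -3.65, -4.22 and -2.94.

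**Figure D2:**
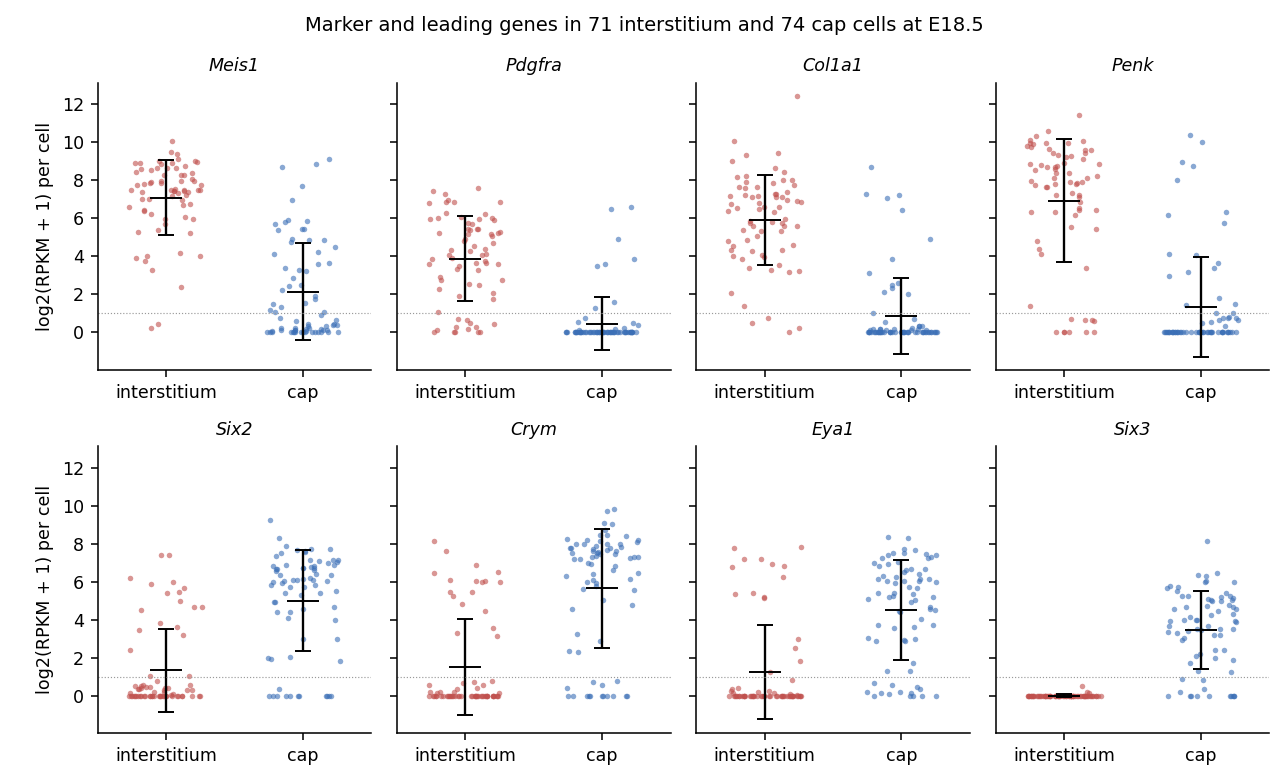
Level per cell, as log2(RPKM + 1), of 8 genes in 71 interstitium cells (red, left in each panel) and 74 cap cells (blue, right), with the mean and the SD between cells as bars and the detection limit of 1 RPKM as a dotted line. Meis1, Pdgfra, Col1a1 and Penk are high in interstitium, Six2, Crym and Eya1 are high in cap with overlap, and Six3 is under 1 RPKM in all 71 interstitium cells.

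Across all genes, 11219 of 36186 entries reached 1 RPKM in at least 10% of interstitium or of cap cells. Of these, 666 (5.94%) were higher in interstitium by 1 log2 unit or more and 303 (2.7%) were lower, with a median difference of 0.01. These shares over all genes are the background for every count of list members below. Without the cells high for the pseudogene (62 interstitium and 54 cap cells kept), 474 were higher and 629 lower, and the median of all genes moved to -0.13. Without the cells that held more markers of the other lineage (65 and 65 kept), 619 were higher and 632 lower, with a median of -0.11. The larger number of genes on the interstitium side was thus not kept in either setting. All 21 marker and leading genes recomputed there kept their direction, but the leading genes were picked for the largest differences in these same cells. The second setting also left cells out by the markers themselves, so the kept direction is no independent check. By 3 log2 units or more, 67 genes (0.597%) were higher and 7 (0.0624%) lower.

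**Figure D3:**
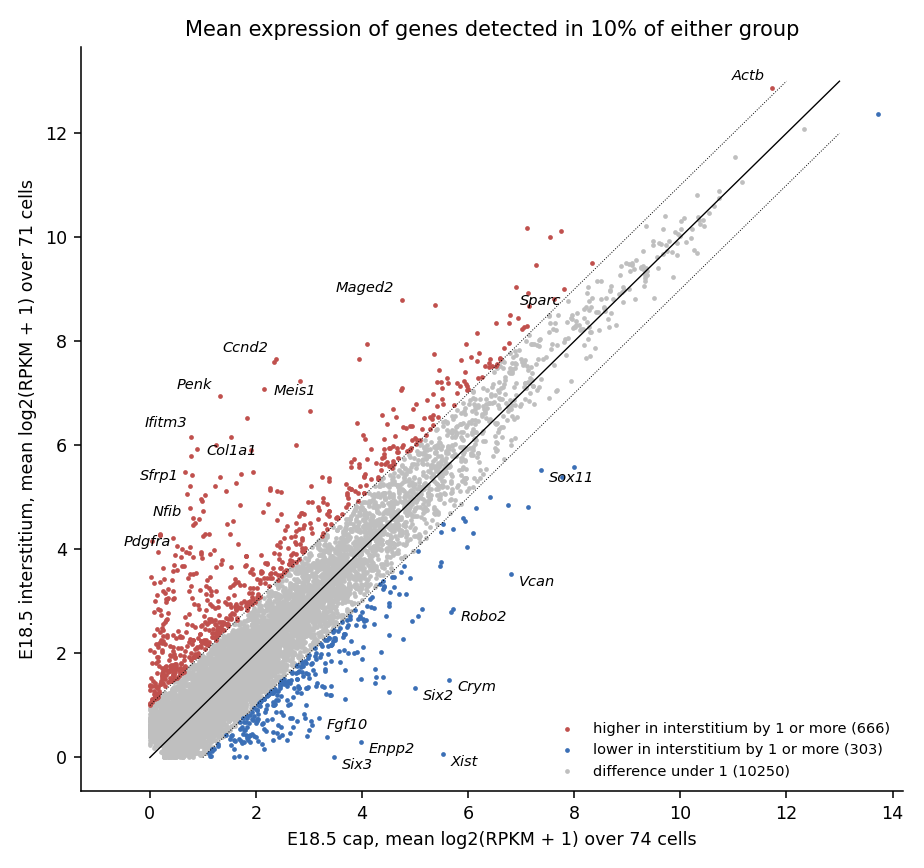
Mean log2(RPKM + 1) over 71 interstitium cells (vertical axis) against that over 74 cap cells (horizontal axis) for 11219 genes. Dotted lines mark a difference of 1 log2 unit, red points are the 666 genes higher and blue points the 303 genes lower in interstitium, and Penk, Ifitm3, Ccnd2 and Meis1 are among those farthest above the line while Xist, Crym, Six2 and Six3 are among those farthest below it.

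The largest positive difference was that of Penk, which encodes proenkephalin, the precursor of opioid peptides. Penk (gene ID 18619, chr4:4133536-4138815) ranged over 0, 242 and 2756 RPKM in interstitium cells, against 0, 0 and 1346 RPKM in cap cells, a difference of 5.61. Cells with transcript numbered 61 of 71 interstitium and 19 of 74 cap cells. All 61 interstitium cells with Penk also had Meis1, which was detected in 69 of all 71 interstitium cells. Cap cells with Penk reached interstitium levels in a few cases, so the groups overlapped.
Ccnd2, which encodes cyclin D2, a driver of entry into the cell cycle, had 0.291, 266 and 1328 RPKM in interstitium cells, against 0, 0.713 and 542 RPKM in cap cells. It was present in 70 of 71 interstitium and 32 of 74 cap cells, and the difference was 5.28. Anxa2, an annexin that binds membrane lipids in the presence of calcium, had 0, 360.2 and 4089 RPKM in interstitium cells, against 0, 0.555 and 3257 RPKM in cap cells and differed by 5.26. Ifitm3, a membrane protein that restricts viral entry, had 0, 141 and 1776 RPKM in interstitium cells, against 0, 0 and 709 RPKM in cap cells, with a difference of 5.38. Nearly all interstitium cells were high for Ccnd2, while 11 interstitium cells lacked Ifitm3 at 1 RPKM.
Sfrp1, a secreted inhibitor of Wnt ligands, had 0, 96.2 and 509 RPKM in interstitium cells, against 0, 0 and 143 RPKM in cap cells. The share of cells was 65 of 71 interstitium and 13 of 74 cap cells, and it differed by 4.83. Also among the 20 largest positive differences were Plagl1 (4.75), an imprinted zinc finger factor, Cnn2 (4.69), an actin-binding calponin, and Ldb2 (4.46), a cofactor of LIM-domain proteins. Mgp (4.42), an inhibitor of calcification, Myl9 (4.06), a myosin light chain, and Maged2 (4.04) also belonged to these 20. The near-identical entries Plac9a and Plac9b differed by 4.102 and 4.09, and reads of one could be counted for the other. The Y-linked gene Ddx3y (4.13) follows the difference in sex.

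Collagens and the proteins that bind them were mostly higher in interstitium. Of 10 fibrillar collagen genes that passed the filter on detection, 5 were higher and 1 was lower in interstitium, and the median over all 11 members was 0.53. Col3a1, a fibrillar collagen of soft tissue, had 0, 60.2 and 2019.5 RPKM in interstitium cells, against 0, 0 and 179 RPKM in cap cells and differed by 5.01. It was detected in 67 of 71 interstitium and 12 of 74 cap cells, and 66 interstitium cells had both Col1a1 and Col3a1. Col1a2 (4.63), Col5a2 (2.95) and Col5a1 (1.204) were also higher. Col2a1, the collagen of cartilage, was the member that was lower, at -1.305, with detection in 10 of 71 interstitium and 34 of 74 cap cells.
Of 8 other collagens that passed, 6 were higher and none was lower, with a median over all 11 members of 1.08. Col12a1, which lies along collagen fibrils, was detected in 56 of 71 interstitium and 5 of 74 cap cells and differed by 2.69. Col6a1 (2.54), Col6a3 (2.34) and Col6a2 (1.2997), the chains of beaded microfibrils, were higher together.
The small leucine-rich proteoglycans, which coat collagen fibrils, had 6 of 7 members that passed higher and none lower (median over 10 members 1.099). Bgn, biglycan, had 0, 60.7 and 631 RPKM in interstitium cells, against 0, 0 and 376 RPKM in cap cells and differed by 4.36. Ogn (4.0002) and Dcn (3.04) followed.

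Among matrix glycoproteins, 13 of 21 that passed were higher and 2 lower, with a median over all 23 members of 1.33. Postn, periostin, was detected in 46 of 71 interstitium and 1 of 74 cap cells. Its values were 0, 19.9 and 1047 RPKM in interstitium cells, against 0, 0 and 418 RPKM in cap cells, and the single cap cell stood within the interstitium range. Fbln5 (3.39) and Emilin1 (3.29), which take part in elastic fibres, and Eln (2.34), elastin itself, were higher. Fn1, fibronectin, was detected in 71 of 71 interstitium and 67 of 74 cap cells and had 2.55, 46.5 and 156 RPKM in interstitium cells, against 0, 3.09 and 107 RPKM in cap cells, so that its difference of 2.93 came from its level and not from the share of cells. Vcan, the large chondroitin sulphate proteoglycan versican, went the other way. It had 0, 11.4 and 180.4 RPKM in interstitium cells, against 1.09, 148 and 492 RPKM in cap cells, was detected in all 74 cap cells and in 52 interstitium cells, and differed by -3.29. Nell1, a secreted protein with thrombospondin-like domains, was lower too, at -2.94, with detection in 8 of 71 interstitium and 52 of 74 cap cells.
Basement membrane genes differed less, with 4 of 16 higher and none lower and a median over 20 members of 0.23. Nid1, nidogen 1, led them, with 0, 53.98 and 1146 RPKM in interstitium cells, against 0, 0 and 284 RPKM in cap cells and a difference of 4.004. The ubiquitous chains Col4a1 (0.17) and Col4a2 (-0.027) were nearly level, whereas Col4a3 (2.27) and Lama4 (1.74) were higher.
Of 21 enzymes and inhibitors of the matrix, 9 were higher and 1 lower, with a median of 0.68. Timp3 (3.24) and Mmp2 (2.43), an inhibitor and a protease, were both higher, as were Pcolce (3.04) and Loxl1 (2.76), which act on procollagen and on crosslinks. P4ha3, a prolyl hydroxylase chain, was lower at -2.12.
Integrins and other adhesion molecules were divided. Of 10 integrins that passed, Itga9 (2.03), Itgav (1.76) and Itgb1 (1.19) were higher and Itga8 (-1.62), a receptor of the cap for nephronectin, was lower. Of 14 other adhesion genes that passed, 3 were higher, led by the protocadherin Pcdh18 (2.33), and 2 were lower, Cd24a (-2.32) and Cdh4 (-2.07). Their median over 19 members was 0.022, and that of all 15 integrins was 0.302.

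Genes of the actin cytoskeleton had a median difference of 1.898 over 20 members, with 15 of 18 that passed higher and 1 lower. Cnn2 had 0, 142 and 954 RPKM in interstitium cells, against 0, 0 and 1299 RPKM in cap cells, and Myl9 had 0, 85.9 and 873 RPKM in interstitium cells, against 0, 0 and 1011 RPKM in cap cells. Tpm1 (2.61), Flna (2.16), Vim (2.204) and Myh9 (1.75), which encode tropomyosin, filamin, vimentin and non-muscle myosin, were higher as well. Actb, often taken as a constant, had 3541, 7915 and 16142 RPKM in interstitium cells, against 163, 3763 and 10491 RPKM in cap cells and was higher by 1.15, and Actb and B2m were the 2 of 12 housekeeping genes past 1 log2 unit. Tpm2 was the lower member at -1.35, though at -0.67 with pool 2 alone. Mylk, the kinase of myosin light chains, which is outside this list, was detected in 56 of 71 interstitium and 8 of 74 cap cells and differed by 2.98. Acta2, the actin of smooth muscle, was detected in only 18 of 71 interstitium and 4 of 74 cap cells, a difference of 0.95.
Of 13 annexin and S100 genes that passed, 8 were higher and none was lower, with S100a10 (3.66), the partner of Anxa2, and S100a6 (2.89) next to Anxa2 itself. Of 8 interferon-related genes that passed, the 4 that were higher were Ifitm3, Ifitm1 (3.198), Ifitm2 (2.14) and B2m (1.69). The interferon-responsive Irf1 (-0.26) and Isg15 (-0.22) were not among them.

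**Figure D4:**
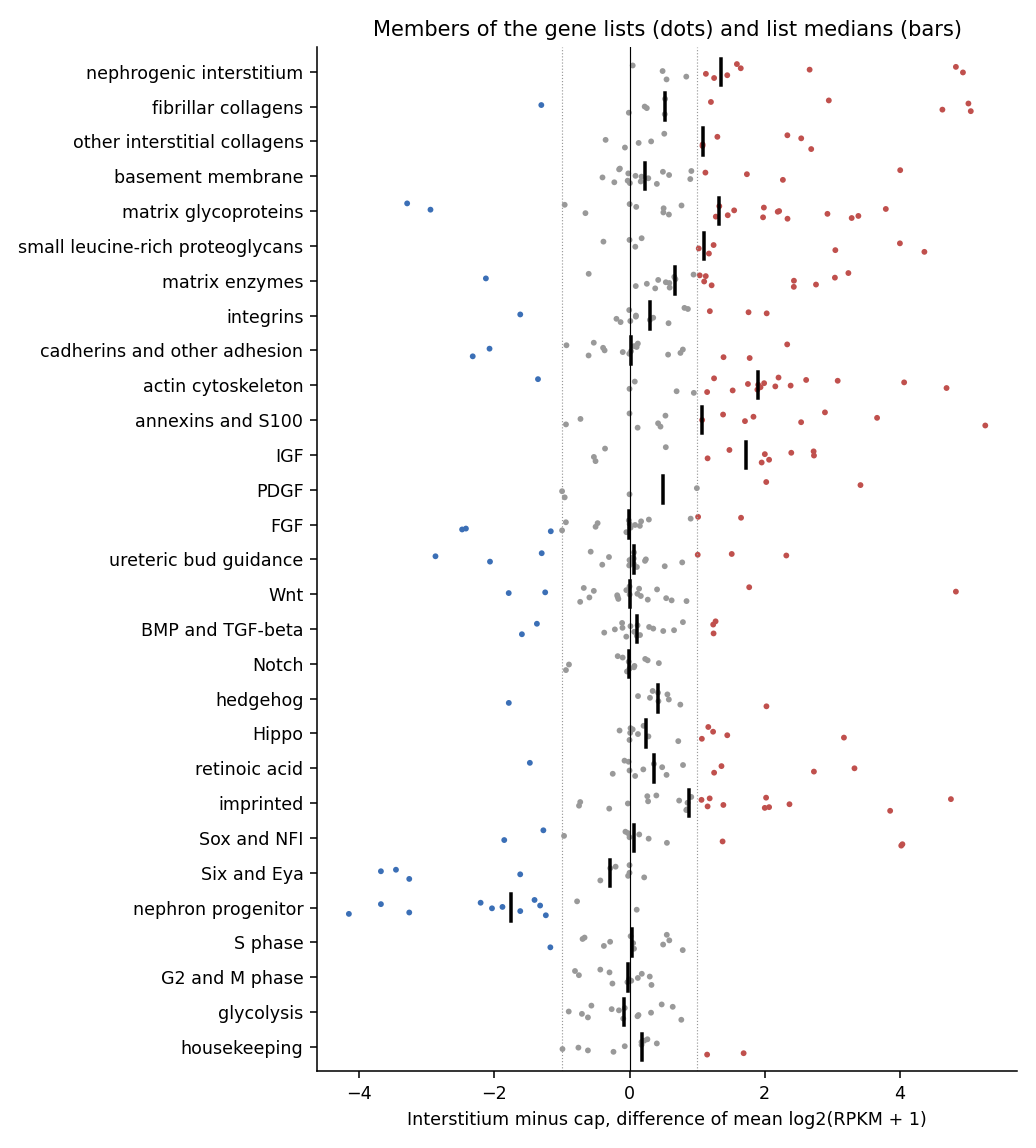
Difference of mean log2(RPKM + 1), interstitium minus cap, for each member (dots) of 29 gene lists and the median over all members of each list (black bars). Red dots are members higher by 1 or more, blue dots members lower by 1 or more, and the actin and IGF lists have the highest medians while the nephron progenitor list has the lowest.

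Both PDGF receptors were higher in interstitium, Pdgfra by 3.42 and Pdgfrb by 2.02, while the ligand genes Pdgfa (-0.96, detected in 10 of 71 interstitium and 33 of 74 cap cells) and Pdgfc (-0.998) did not reach 1 log2 unit. With pool 2 alone, 3 genes of the PDGF list were higher and 2 lower by 1 log2 unit or more. Pdgfra and Pdgfrb were detected together in 35 interstitium cells, with Pdgfra alone in 23 and Pdgfrb alone in 3.
Of 14 FGF pathway genes that passed, 3 were lower and 2 higher, with a median over 18 members of -0.0045. Fgf10, a ligand for the epithelial FGF receptor, had 0, 0.241 and 26.3 RPKM in interstitium cells, against 0.0262, 10.3 and 173 RPKM in cap cells, with detection in 16 of 71 interstitium and 56 of 74 cap cells and a difference of -2.42. Fgf1, a further ligand, had 0, 0 and 96.8 RPKM in interstitium cells, against 0, 9.605 and 224 RPKM in cap cells and differed by -2.48. Both ligands were detected together in 5 interstitium and 41 cap cells. The response gene Etv4 was lower (-1.16) and the feedback inhibitor Spry2 higher (1.65).
Guidance of the ureteric bud rests on Gdnf from the mesenchyme and on Slit signals through Robo2, which limit it. Gdnf had 0, 6.37 and 355 RPKM in interstitium cells, against 0, 0.747 and 308 RPKM in cap cells, a difference of 0.78, and was detected in 46 of 71 interstitium and 36 of 74 cap cells, so both lineages held it. Gfra1, its co-receptor, was lower, at -2.06, with detection in 13 of 71 interstitium and 43 of 74 cap cells. Robo2 had 0, 6.94 and 116 RPKM in interstitium cells, against 0, 57.6 and 539.7 RPKM in cap cells and differed by -2.87, and its ligand Slit2 by -1.299. Robo2 and Slit2 were detected in the same cell in 14 of 71 interstitium and 47 of 74 cap cells. The semaphorins Sema3a (2.32), Sema3d (1.51) and Sema3c (1.01) were the 3 higher genes among the 18 that passed, and Sema3a was detected in 42 of 71 interstitium and 4 of 74 cap cells.

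Of 20 Wnt pathway genes that passed, 2 were higher and 2 lower, against 5.94% and 2.7% of all genes (median over 22 members 0.00093). Beside Sfrp1, the ligand Wnt5a was higher by 1.77, with detection in 40 of 71 interstitium and 9 of 74 cap cells. The Wnt-enhancing R-spondins Rspo1 (-1.79) and Rspo3 (-1.25) were lower, Rspo3 by less than 1 log2 unit with pool 2 alone (-0.77). Of 16 BMP and TGF-beta genes that passed, Tgfbr3, Bmpr1a and Tgfb3 were higher, by 1.27, 1.24 and 1.24. Bmp7, a ligand that cap cells are known to make and to need, was lower at -1.59, detected in 10 of 71 interstitium and 39 of 74 cap cells, and Tgfbi was lower at -1.37.
The IGF list had 8 of 12 members higher and none lower, with a median of 1.72. Igf2, a growth factor of the fetus, had 1.31, 72.8 and 1751 RPKM in interstitium cells, against 0, 21.04 and 607 RPKM in cap cells and differed by 2.06. Igf1 (1.95) and the binding proteins Igfbp3 (2.73), Igfbp6 (2.72), Igfbp5 (2.39) and Igfbp4 (2.002) were higher, while the receptor Igf1r was at -0.503.
Among hormone and peptide signals, 5 of 12 that passed were higher and none lower. Agtr2, the type 2 receptor of angiotensin II, had 0, 3.77 and 582 RPKM in interstitium cells, against 0, 0 and 9.66 RPKM in cap cells, was detected in 44 of 71 interstitium and 2 of 74 cap cells and differed by 3.27. Most cap cells were at 0, whereas the type 1 receptor gene Agtr1a was detected in 2 of 71 interstitium and 1 of 74 cap cells. The heparin-binding growth factors Ptn and Mdk were higher by 3.65 and 1.197.
Retinoid genes differed in both directions, with 4 of 11 higher and 1 lower. Dhrs3, which turns retinaldehyde back to retinol, had 0, 865 and 3599.8 RPKM in interstitium cells, against 0, 107 and 5638 RPKM in cap cells and was higher by 3.33. The binding protein gene Crabp2 was higher by 2.73, though by 1.78 with pool 2 alone, and Rdh10, which makes retinaldehyde, was lower by 1 log2 unit or more (-1.47). Aldh1a2, which makes retinoic acid, was detected in 67 of 71 interstitium and 70 of 74 cap cells and differed by 0.55.
For the hedgehog list the co-receptors Boc (2.03) and Gas1 (-1.79) lay on opposite sides, and no other member passed 1 log2 unit. With pool 2 alone 2 hedgehog members were higher and 1 lower. In the Hippo list 5 of 11 were higher (3 with pool 2 alone) and none lower, with the target gene Cyr61 at 3.17 and the atypical cadherin Fat4, a stromal signal to the cap, at 1.45. None of the 6 Notch genes that passed differed by 1 log2 unit, though 1 was lower by that much with pool 2 alone.

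Transcription factors parted the groups by family. Meis1 was the only member of the Meis and Pbx group with a difference above 2, with Meis2 at 0.49 and Pknox1 at -1.13. The nuclear factor I genes Nfib and Nfia were higher by 4.04 and 4.02. Nfib had 0, 38.7 and 301 RPKM in interstitium cells, against 0, 0.06998 and 114 RPKM in cap cells. Both were detected together in 64 of 71 interstitium and 12 of 74 cap cells. Sox11 (-1.85) and Sox9 (-1.27) were lower. Sox11 was abundant in both groups, with 0, 66.4 and 522 RPKM in interstitium cells, against 1.14, 212 and 3897 RPKM in cap cells.
Of 16 mesenchymal transcription factors that passed, Ebf1 (3.16), Hic1 (1.78), Tcf21 (1.59), Snai2 (1.23) and Tbx3 (1.103) were higher, and Foxp1 (-1.56) and Foxc1 (-1.08) lower. With pool 2 alone 2 were higher, Ebf1 (3.703) and Hic1 (1.92), and 1 was lower, Foxp1 (-1.36), while Tcf21 (0.85), Snai2 (0.87), Tbx3 (0.63) and Foxc1 (-0.43) did not reach 1 log2 unit. Foxd1 had 0, 1.88 and 122 RPKM in interstitium cells, against 0, 0 and 25.98 RPKM in cap cells and was detected in 41 of 71 interstitium cells (57.7%, 45.4 to 69.4) and 25 of 74 cap cells (33.8%, 23.2 to 45.7). All 41 interstitium cells with Foxd1 also had Meis1, against 12 of the 25 cap cells with Foxd1. Meis1 was detected in 69 of all 71 interstitium and 36 of all 74 cap cells, so these shares are near those of all cells. The nephrogenic interstitium list as a whole had 8 of 11 members that passed higher and none lower, and its median over 12 members was 1.35. Ntn1, a secreted netrin of the stroma, was the member next to Meis1 and Sfrp1, at 2.66.

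On the cap side, 10 of 12 nephron progenitor genes were lower in interstitium and none was higher, with a median of -1.75. Beside Six2, Crym and Eya1 these were Spock2 (-2.203), Osr1 (-2.03), Pax2 (-1.88), Itga8, Wt1 (-1.41), Sall1 (-1.32) and Cited1 (-1.24). The Wt1 transcript was found in 58 of 71 interstitium and 71 of 74 cap cells, so it was common in both groups. Of the 19 interstitium cells with Six2, 16 also had Cited1, 17 had Pax2, 18 had Meis1 and 17 had Col1a1. Of the 62 cap cells with Six2, 39 had Cited1, 53 had Pax2, 26 had Meis1 and 7 had Col1a1. The part of mixed captures in the 19 cells was not tested.
Six3 set the cap cells apart from every other group. Six3 (gene ID 20473, chr17:85613608-85626191), a homeobox factor whose gene neighbours Six2 on chromosome 17 and which is best known from the eye and forebrain, had 0, 0 and 0.408 RPKM in interstitium cells, against 0, 13.99 and 277 RPKM in cap cells. It was detected in 0 of 71 interstitium cells (0%, 0 to 5.06) and 60 of 74 cap cells (81.1%, 70.3 to 89.3), and the groups overlapped only among cap cells under 1 RPKM. By the simpler rule of 3 counts of 71, a count of 0 allows a share of up to 4.23%, and the exact 95% bound just given is the wider of these limits. The interstitium cells with Six2 were no exception, for 0 of 19 had Six3, against 56 of 62 cap cells with Six2. It was likewise at 1 RPKM or more in 0 of 44 Pax2 mutant cap cells at E18.5, 0 of 18 cap cells at E13.5 and 0 of 29 Pax2 mutant cap cells at E13.5, although 14 of the 18 E13.5 cap cells had Six2. The overlapping antisense entry Six3os1 was detected in 8 of 74 cap cells and in no cell of the other groups. Whether the table was counted by strand is not given in the sources used here, so reads of Six3 and Six3os1 cannot be told apart. The labels do not say whether the cap cells carry a transgene or other construct that includes Six3, so transcripts of the native gene and of such a construct cannot be told apart, and neither can lineage, date and embryo. Eya4 (-1.62) was the other member of its list, which holds Six2, Six3, Eya1 and their relatives, past 1 log2 unit.

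Enpp2, which encodes autotaxin, the enzyme that makes lysophosphatidic acid, had 0, 0 and 31.5 RPKM in interstitium cells, against 0, 15.1 and 696 RPKM in cap cells. It was detected in 5 of 71 interstitium cells (7.04%, 2.33 to 15.7) and 57 of 74 cap cells (77.03%, 65.8 to 86.01) and differed by -3.68. All 5 interstitium cells with Enpp2 had Six2. Ppap2b, a phosphatase that degrades this lipid, was lower as well, at -2.55, with detection in 17 of 71 interstitium and 54 of 74 cap cells. Slc12a2, a sodium, potassium and chloride cotransporter, had 0, 6.26 and 123 RPKM in interstitium cells, against 0, 68.03 and 445 RPKM in cap cells and differed by -2.89. Hmga2, a chromatin protein of embryonic cells, had 0, 1.59 and 232 RPKM in interstitium cells, against 0, 36.4 and 603 RPKM in cap cells and differed by -2.49.
Further genes among the 20 most negative differences were Me2 (-2.85), a mitochondrial malic enzyme, Sncaip (-2.82), Cldn9 (-2.55), a claudin, Rgs2 (-2.55), Flrt1 (-2.49) and Shisa2 (-2.43). Xist, which coats and silences an X chromosome in female cells, stood first at -5.46 and follows the difference in sex. By share of cells, Cxcr4, the receptor of the chemokine Cxcl12, was found in 10 of 71 interstitium and 50 of 74 cap cells, the atypical cadherin gene Fat3 in 10 of 71 interstitium and 52 of 74 cap cells and Pgm2l1 in 12 of 71 interstitium and 54 of 74 cap cells. Of 7 committing nephron genes that passed, Cdh4 and Pax8 (-1.89) were lower and none was higher, while Wnt4 was detected in 68 of 71 interstitium and 73 of 74 cap cells.

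Imprinted genes lay on the interstitium side where they differed, with 10 of 21 that passed higher and none lower and a median over 22 members of 0.89. Plagl1 had 0, 85.2 and 1104 RPKM in interstitium cells, against 0, 0.0802 and 148 RPKM in cap cells. Cdkn1c, a brake on the cell cycle expressed from the maternal copy, had 3.66, 307 and 2289 RPKM in interstitium cells, against 0, 22.3 and 335 RPKM in cap cells and was higher by 3.86. Mest (2.37), H19 (2.001), Sgce (2.02) and Meg3 (1.39) were higher as well, whereas Grb10 (-0.3003), Nnat (-0.73) and Impact (-0.75) were not. Igf2, Igf2r and Cdkn1c also belong to other lists.
Among G1 regulators, Ccnd1 (3.26) stood beside Ccnd2 and Cdkn1c, and Myc was lower at -1.403. All 54 interstitium cells with Ccnd1 had Ccnd2, against 6 of 12 cap cells. Among interstitium cells without Ccnd1, Ccnd2 was detected in 16 and not in 1. Among cap cells without Ccnd1, it was detected in 26 and not in 36. The genes of replication and division showed little of this. Of 12 S phase genes only Mcm3 (-1.17) passed 1 log2 unit, and of 12 G2 and M phase genes none did, with medians of 0.035 and -0.0197. Ccnb1, the cyclin of mitosis, was detected in 38 of 71 interstitium and 41 of 74 cap cells, at a median of 243.7 RPKM in the interstitium cells and 269.5 RPKM in the cap cells that had it.
None of the 13 glycolysis genes and none of the 10 p53 and apoptosis genes that passed reached 1 log2 unit, and 3 of 14 oxidative phosphorylation genes were higher. With pool 2 alone 3 glycolysis genes and 1 p53 or apoptosis gene were lower and no oxidative phosphorylation gene was higher, and the glycolysis median was -0.41, against -0.082 over all interstitium cells. Of 11 immediate early and stress genes that passed, 4 were higher, led by Fos (2.59) and Btg2 (1.89). Of 7 genes of developmental timing that passed, Hmga2 and Prtg (-1.68) were lower and Igf2bp3 was higher (1.13). Of 12 serine and one-carbon genes, Psat1 (1.58) was higher, and 1 of 12 is near the 5.94% of all genes that were higher.

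Of the marker lists of other kidney cell types, those of podocytes and of mural cells had the highest summed levels. Loop and distal tubule genes gave no member that passed the filter, with a summed level of 0 to 1.87 RPKM in interstitium and 0 to 6.45 RPKM in cap cells. Immune genes had a summed level of 0 to 202 RPKM in interstitium and 0 to 117 RPKM in cap cells, and Ptprc, Lyz2, Tyrobp and the C1q genes were at 0 in all cells of both groups. Erythroid genes reached 0 to 32.8 RPKM in interstitium and 0 to 132 RPKM in cap cells, with Gata1 and Hba-a1 at 0 throughout, and 2 members of this list, Ahsp and Hbb-bt, matched no entry. Proximal tubule genes reached 0 to 159 RPKM in interstitium and 0 to 265 RPKM in cap cells, with Slc34a1 and Slc22a6 at 0. Endothelial genes had 0 to 229 RPKM in interstitium and 0 to 63.6 RPKM in cap cells. Of the 10 members, 4 were at 0 in all interstitium cells and 6 in all cap cells, Tie1 and Esam in both, and none of the 3 members that passed reached 1 log2 unit. Ureteric genes had 0 to 256 RPKM in interstitium and 0 to 289.9 RPKM in cap cells, with Wnt9b, Wnt7b and Aqp2 at 0 and none of 3 past 1 log2 unit. With pool 2 alone 1 ureteric gene was higher and 1 lower. Neural and glial genes had 0.0119 to 195 RPKM in interstitium and 0.136 to 141 RPKM in cap cells, and Elavl4 was lower by 1 log2 unit or more (-1.21) while Sox10 was at 0. Podocyte genes, a list that holds Cdkn1c, had 8.47 to 2618 RPKM in interstitium and 0.267 to 353 RPKM in cap cells. Nphs1 was detected in 51 of 71 interstitium and 57 of 74 cap cells.
For mural and renin cell genes the summed level was 0 to 1881 RPKM in interstitium and 0 to 776 RPKM in cap cells, with 3 of 8 members that passed higher and 1 lower. Rgs5, a marker of pericytes, had 0, 43.9 and 1872 RPKM in interstitium cells, against 0, 0 and 776 RPKM in cap cells and differed by 3.66. Kcnj8, a potassium channel gene of the same cells, was detected in 20 of 71 interstitium and 0 of 74 cap cells, and Pdgfrb in 38 of 71 interstitium and 5 of 74 cap cells. Des, desmin, was lower, at -1.93. Of the contractile genes, Cnn1 was at 0 in every cell of both groups and Tagln was detected in 4 of 71 interstitium and 3 of 74 cap cells. Ren1, which encodes renin, was detected in 2 of 71 interstitium and 0 of 74 cap cells. Mural cells derive from the same stroma, and their part in the differences above was not tested.

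The called differences were seen in both detection and level. Among the 666 higher genes the median share of cells with transcript was 69.7% in interstitium and 35.1% in cap. For 586 of them with at least 5 detecting cells in each group, 541 were also higher among detecting cells, with a median of 0.74. Among the 303 lower genes the shares were 35.2% in interstitium and 67.6% in cap, and 238 of 289 were lower among detecting cells (median -0.46). Both sets were picked by their mean difference in these same cells, detecting cells included. That choice favours the same direction among detecting cells, so these counts are no independent check. A difference in share of 50 percentage points or more was found for 83 genes (0.74%) on the interstitium side and 18 (0.16%) on the cap side. X-linked genes other than Xist, 383 in all, had a median difference of -0.0019, and 6.27% were higher and 3.66% lower.

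The 22 interstitium cells that share pool 2 with the cap cells gave 813 genes higher (7.25%) and 600 lower (5.35%), and the 49 of pool 3 gave 785 higher (7%) and 337 lower (3%). These comparisons use the same cap cells. Between the interstitium pools, 223 genes (1.99%) were higher in pool 2 and 446 (3.98%) lower by 1 log2 unit or more, and 2 (0.0178%) and 12 (0.107%) by 2 or more. Genes higher in pool 2 were led by Ccar2 (2.43), Lipa (2.302) and Igfbp7 (1.98), and genes lower by Snord104 (-3.13) and Nhp2 (-2.48). The FGF response gene Dusp6 (-2.08 between the pools) was -1.48 against cap in pool 2, yet -0.047 over all interstitium cells. Of the 148 distinct list genes that were higher and the 44 that were lower over all interstitium cells, 129 and 41 also passed 1 log2 unit in that direction with pool 2 alone. Among lists that lost calls, 4 of the 6 higher small leucine-rich proteoglycans kept theirs, without Lum and Fmod. Of the higher nephrogenic interstitium genes 6 of 8 kept theirs, without Tcf21 and Crabp1. Of the higher matrix enzymes and inhibitors 7 of 9 did, without Lox and Serpinh1. Some lists also gained calls with pool 2 alone. The FGF list then had 5 members lower, developmental timing 4 lower, and basement membrane 6 higher. The annexin and S100 list and the hormone and peptide list each had 1 lower. Among the leading genes, Ldb2 moved most between the pools, at 5.34 in pool 2 and 4.06 in pool 3 against cap.

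**Figure D5:**
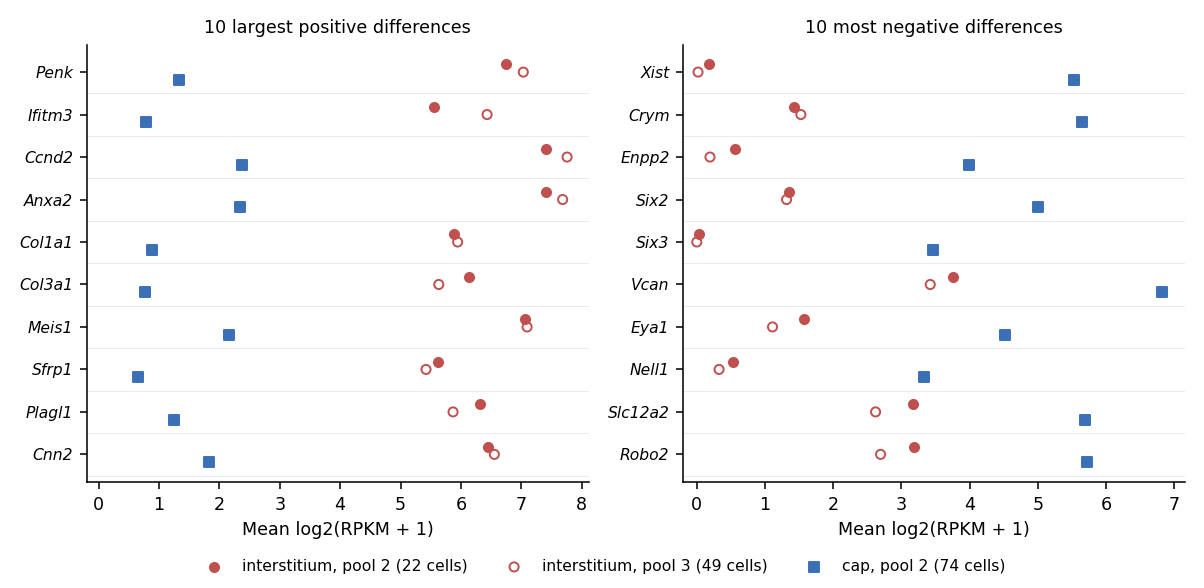
Mean log2(RPKM + 1) of the 10 genes with the largest positive (left) and the 10 with the most negative difference (right) in interstitium cells of pool 2 (filled red, 22 cells), interstitium cells of pool 3 (open red, 49 cells) and cap cells (blue squares, 74 cells). Both interstitium pools lie on the same side of the cap mean for all 20 genes, such as Penk at 6.74 and 7.03 against 1.33. The genes were ranked on both pools together against these same cap cells, so the shared side follows largely from the ranking.

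Within each group the cells differed most in a few genes present in some cells and not in others. In interstitium the largest SD among genes detected in 20 to 80% of cells belonged to Snord52 (4.09), Ccnb1 (4.01), Kpna2 (3.95), Snord87 (3.89) and Rgs5 (3.76). Ccnb1 and Kpna2 are highest in dividing cells, and Rgs5 is the pericyte marker above. In cap cells Ccnb1 (4.01), Snord52 (3.93), Pbk (3.86), Rrm2 (3.71) and Cks2 (3.68) led, mostly genes of cell division, and Il33, a cytokine gene, also belonged to the first 10 at 3.56.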

How the data were processed

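The RPKM table deposited by the authors holds 237 cells and 36186 gene entries, with positions on mm10. Per the submitters' processing notes reads were aligned with TopHat, and the counting rule is not given in the sources used here. The table gives no read counts, and low values did not fall on steps of whole reads (over 98 pairs of cells, the 3 fullest bins of width 0.02 on the log2 scale took a median of 6.93% of the ratios), so read depth is unknown and the number of detected genes stands in for it. The number of cells, not of embryos, sets the precision of the shares. No 2 cells were alike (highest correlation 0.734).

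Cells were grouped by their labels, and 1 cell of the series whose labels name different lineages was left out. Values were taken as log2(RPKM + 1), with a pseudocount of 1 RPKM and detection at 1 RPKM, and genes detected in at least 10% of interstitium or of cap cells were kept. A difference of 1 log2 unit or of 50 percentage points was called, with no test, because each group is 1 sample. The steps were tested on simulated data, in genes common in cap cells and with shifts well above the threshold for a call. The simulation held no pools and no cells of low quality, so it checks the arithmetic and not the calls made here. No cells were clustered and no doublet caller was run.

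The groups, the 50 gene lists (646 distinct genes, 3 without an entry) and the rules were chosen with earlier results of these data known. Genes named are list members, the 20 largest differences and the 15 largest differences in share in each direction, the 10 largest between pools, and the 10 with the largest SD in each group. Ranked genes had to reach 1 RPKM in 50% of cells on their higher side (not for the SD), without Gm, Rik and LOC models, mitochondrial, ribosomal protein and haemoglobin genes, and a few genes that met the rules are not reported here. Six3os1, LOC100503946 and the genes of the closing observations outside these rules were chosen after their values were seen. Symbols on several entries were kept apart by gene ID. Leading genes that overlap other entries, among them Meis1, Ccnd2, Anxa2, Cnn2, Ldb2, Vcan, Nell1 and Robo2, may share reads with them. Promoters came from RefSeq (GRCm38.p6). Python 3.11.15, numpy 2.4.6, pandas 2.3.3 and scipy 1.17.1 were used.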

Additional observations from a re-analysis of the deposited data

How the results depend on the processing

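The numbers of genes higher and lower in interstitium, 666 and 303 as reported, depend on the scale and on the cells kept. They were 1456 and 1105 with a pseudocount of 0.1 RPKM, 182 and 38 with 10 RPKM, and 1454 and 1105 as ratios of mean RPKM. The number lower was 600 with pool 2 alone, 629 without cells high for the pseudogene, 479 with cells of 4000 to 6500 detected genes, and 632 without cells holding more markers of the other lineage, a setting added after the marker counts were seen and built on genes it compares. The cause of these shifts was not tested. Rescaling to 1 RPKM sum (702 and 269), median-ratio scaling (618 and 264), no filter on low values (666 and 303), a filter at 25% of cells (658 and 300) and pool 3 alone (785 and 337) moved both numbers by less than 1.5 times. Of 18 genes with a share lower by 50 percentage points, the number became 29 for any value above 0 and 8 at 5 RPKM. For 21 named genes and 50 lists, 210 and 500 values were recomputed, of which 13 and 15 moved by 1 SD between cells or more. None with a main difference of at least 1 log2 unit changed its sign. Most list medians were smaller than that, so the rule could not count a change of sign for them. Without cells high for the pseudogene, the oxidative phosphorylation median went from 0.68 to -0.022 and the housekeeping median from 0.177 to -0.27. No paired analysis was possible because cells of the groups share no embryo, litter or replicate number in the labels. Leaving out replicates could not be done, since each group is 1 sample. Unknown read depth limits what a value of 0 means for any one cell.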

Other observations

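Genes named by rank included, 39 genes were detected in 50% or more of interstitium cells and in 10% or fewer of cap cells, and 7 showed the reverse. Among the 39 were Reln (41 of 71 interstitium and 5 of 74 cap cells), which encodes the secreted glycoprotein reelin, and Ddr2 (42 of 71 interstitium and 4 of 74 cap cells), a receptor for fibrillar collagen. The set also held Cd248 (36 of 71 interstitium and 3 of 74 cap cells), endosialin of pericytes and fibroblasts, S1pr3 (44 of 71 interstitium and 1 of 74 cap cells), a receptor for sphingosine 1-phosphate, and Dnm3os (47 of 71 interstitium and 2 of 74 cap cells), the host transcript of stromal microRNAs. Fli1, an ETS factor best known from endothelium, was detected in 42 of 71 interstitium and 2 of 74 cap cells, while of the 10 endothelial markers 4 were at 0 in all interstitium cells and 6 in all cap cells, with a summed level of 0 to 229 RPKM in interstitium and 0 to 63.6 RPKM in cap cells. The 7 genes of the cap side were Xist, Enpp2, Six3, Rgs2, Hsd11b2 (3 of 71 interstitium and 39 of 74 cap cells), which inactivates glucocorticoids, Tslp (6 of 71 interstitium and 39 of 74 cap cells), a cytokine of epithelia, and the uncharacterised 4930539N22Rik. These genes were chosen after their values were seen.

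In the other groups of the series the same markers did not all follow the cap label. Meis1 was detected in 42 of 44 Pax2 mutant cap cells at E18.5, in 17 of 18 cap cells and 26 of 29 Pax2 mutant cap cells at E13.5, against 36 of 74 cap cells at E18.5. For Pdgfra the numbers were 41 of 44 mutant cells at E18.5 and 1 of 18 cap and 8 of 29 mutant cells at E13.5, against 8 of 74 cap cells at E18.5. Enpp2 was detected in 6 of 44 mutant cells at E18.5, in 4 of 18 cap and 6 of 29 mutant cells at E13.5, against 57 of 74 cap cells at E18.5. Group and date cannot be told apart in these values. Both E13.5 groups came from pool 3, whereas the mutant and the cap cells at E18.5 came from pools 4 and 2.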
